A study of Mus musculus with 15 samples.

Results

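The 10 genes described here, Cd274, Pdcd1lg2, Pvr, Nectin2, Cd80, Cd86, Cd47, Lgals9, Icosl and Cd276, encode ligands that a tumour cell can show to T cells, NK cells or macrophages. They were found by symbol among the 55571 gene rows of the deposited count table. All 10 were present, 8 were among the 14571 genes with enough counts to test, and Pdcd1lg2 and Cd86 were too low. The cells were E0771, a mouse mammary carcinoma line, grown without T cells according to the series title. RNA sequencing covered 15 libraries, 3 for each of 5 lines: an empty vector (vector) and 4 forms of Malt1 named Malt1_WT, Malt1_PD, Malt1_V87R and Malt1_L88D. WT is the wild type, and V87R and L88D are substitutions at neighbouring residues of the N-terminal death domain. The PD values stand in columns named for C461A, a cysteine substitution, and what PD abbreviates is not spelled out in the labels. The labels do not say whether the replicates are separate cultures, or whether a line is a clone or a pool. The p-values therefore cover only library-to-library spread, possibly of technical origin, and a construct and the line that carries it cannot be told apart. The promoter of the constructs is not given in the sources used here.

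MALT1 is a paracaspase that works with BCL10 and CARD proteins upstream of NF-kB, where it can bridge other proteins and cut substrates. Immune checkpoint ligands sit on the surface of tumour and antigen-presenting cells and tune the lymphocytes that touch them. CD274 (PD-L1) and PDCD1LG2 (PD-L2) bind PD-1 on T cells and dampen them. PVR and NECTIN2 bind the inhibitory receptor TIGIT and the activating receptor CD226. CD80 and CD86 bind CD28 and CTLA4, ICOSL binds ICOS, and CD276 belongs to the same B7 family with a less settled receptor. CD47 binds SIRPA on macrophages and restrains engulfment, and galectin-9, the product of Lgals9, is a sugar-binding protein linked to the receptor TIM-3. Cd274 is known as a gene that interferon gamma switches on through JAK kinases and IRF1, and NF-kB is a further known activator.

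The libraries held 15471746 to 21458457 counts each. Levels are CPM (counts per 1e6 counts of a library, after TMM scaling), and ± values of levels are SD over n = 3 libraries. Malt1 itself lay between 26.4 and 30.2 CPM in the vector libraries and between 192.8 and 281 CPM in the 12 libraries of the Malt1 lines. The Malt1 lines thus did not overlap the vector, but they were not equal. Means were 201.9 CPM in WT, 249.8 in PD, 279.5 in V87R and 251.3 in L88D, and no mutant library overlapped the WT libraries. The part of this difference in the ligand levels was not tested. Of 10 epithelial markers, 2 exceeded a mean of 5 CPM in every group, Krt8 (means of 89.6 to 116.6 CPM) and Epcam (5.66 to 9.74 CPM). The other 8, among them Cdh1 and Krt18, did not. In contrast, 5 of 10 fibroblast markers exceeded 5 CPM in every group, and the fibroblast list summed to 384 to 466 CPM per library. Summed T and NK cell markers stayed between 1.91 and 4.49 CPM. Summed macrophage and dendritic cell markers were at 38.1 to 41.6 CPM in vector, 84.9 to 91.7 in WT, 77.7 to 84.4 in PD, 62.5 to 65.5 in V87R and 65.1 to 90.2 in L88D. Of that list, Cd68, Cd14, Lyz2, Mpeg1 and Cd74 passed a mean of 5 CPM in some or all groups. From vector to WT, mean Cd68 went from 12.04 to 25.2 CPM, Cd14 from 8.035 to 23.42 and Cd74 from 2.7 to 10.72. Mpeg1 had means of 5.162 CPM in vector, 27.37 in V87R and 28.06 in L88D. Lyz2 ran from 5.485 to 19.55 CPM over the L88D libraries. Ptprc, a marker of white blood cells, did not pass 0.295 CPM in any library. In bulk RNA, fewer cells of a type and less RNA per cell cannot be told apart.

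Cd274 was low in the vector line and higher in all 4 Malt1 lines, but to unequal levels. It lies on chromosome 19 at 29367455 to 29388095, plus strand, of GRCm38 (ENSMUSG00000016496.7). The vector libraries held 4.83, 5.89 and 5.63 CPM. The WT libraries held 170.7, 174 and 180 CPM, and the L88D libraries 178.4, 184.8 and 182.6 CPM. The V87R libraries held 206.9, 202.1 and 190 CPM. These 9 libraries formed one high range, far above the vector. The PD libraries, at 23.7, 21.5 and 20.4 CPM, stood between the ranges and overlapped neither.

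Fold changes below are log2 values with their standard error (SE) from edgeR's quasi-likelihood fit of all 15 libraries, and adjusted p-values are Benjamini-Hochberg values over the 14571 tested genes. Against vector, Cd274 rose by 5.01 ± 0.07 in WT (32.3-fold, adjusted p = 3.6e-29). The rise was 5.20 ± 0.07 in V87R (36.8-fold, adjusted p = 3.1e-29) and 5.07 ± 0.07 in L88D (33.6-fold, adjusted p = 7.2e-29). In PD it was 2.01 ± 0.08 (4.04-fold, adjusted p = 4.7e-18). The PD line thus held 12.5% of the Cd274 level of the WT line, 7.99-fold less (SE 0.06 on the log2 scale, adjusted p = 5.1e-25). Both death domain substitutions held more Cd274 than PD, by 9.13-fold for V87R (adjusted p = 2e-26) and 8.32-fold for L88D (adjusted p = 5.6e-26). At the top of the order the steps were small. V87R exceeded WT by 1.14-fold (adjusted p = 0.00099) with no overlap of libraries. L88D and WT did not differ beyond the spread (0.06, 95% interval -0.04 to 0.15, adjusted p = 0.33). V87R and L88D were not called different either (0.13, interval 0.04 to 0.23, adjusted p = 0.68), although their libraries did not overlap. The intervals are not adjusted for the number of genes.

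**Figure D1:**
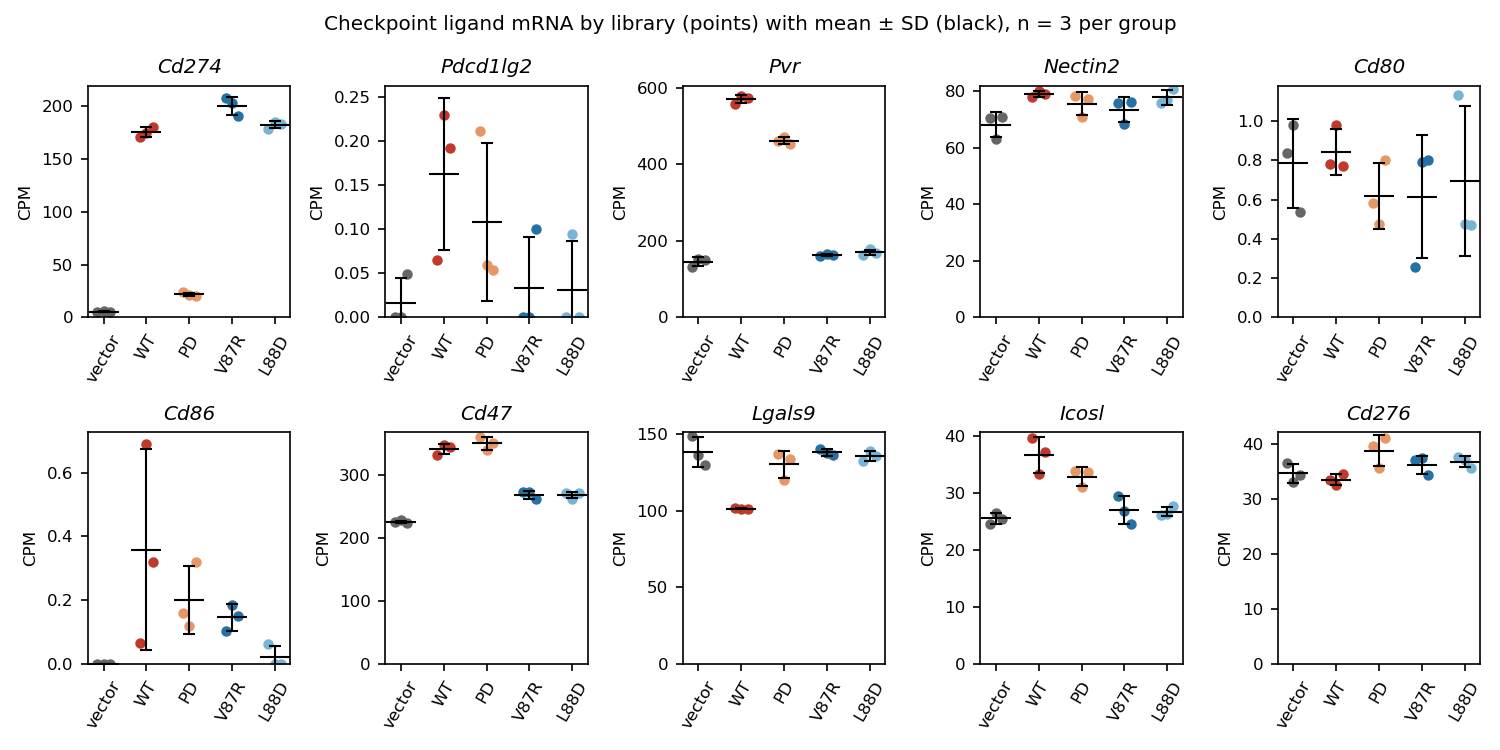
Level of the 10 ligand genes in each of the 15 libraries, 1 panel a gene, in CPM with a separate linear axis for each gene. Points are libraries, and black marks are the mean ± SD of a group. Cd274 was low in vector and PD and high in the other 3 lines, while Pvr was high in WT and PD and near the vector level in V87R and L88D.

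The genes around Cd274 on chromosome 19 rose less than it did, or did not rise. Pdcd1lg2, the gene of the second PD-1 ligand, begins 22.8 kb beyond the end of Cd274 and was near 0 in every library. It had 0, 0 and 1 counts in vector, 1, 4 and 3 in WT, 4, 1 and 1 in PD, 0, 0 and 2 in V87R and 0, 2 and 0 in L88D. On the other side, Jak2, which encodes a kinase of the interferon gamma receptor, begins 115.6 kb before Cd274. It rose from 27.5 ± 0.43 CPM in vector to 81.7 ± 2.81 in WT (2.97-fold, adjusted p = 8.2e-19), 64.2 ± 3.90 in PD (2.33-fold, adjusted p = 5.8e-16), 41.3 ± 1.59 in V87R (adjusted p = 5.4e-08) and 41.4 ± 3.18 in L88D (adjusted p = 6.5e-08). The order of the lines for Jak2 was therefore not that of Cd274, since PD stood above V87R and L88D. The small gene Insl6, 42.1 kb away, moved from 2.14 ± 0.28 CPM in vector to 6.05 ± 1.37 in WT (2.80-fold, adjusted p = 1.1e-07). Its means were 4.02 CPM in PD, 3.23 in V87R and 3.42 in L88D. Further out, Rcl1 (0.89-fold, adjusted p = 0.018), Ermp1 (0.89-fold, adjusted p = 0.0057) and Ric1 (1.31-fold, adjusted p = 0.00017) changed little in WT, and Rln1 was too low to test. Ermp1 changed more in PD, with means of 106.7 CPM in vector, 94.85 in WT, 78.32 in PD, 110.9 in V87R and 112.7 in L88D.

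Plgrkt, which encodes a plasminogen receptor, lies head to head with Cd274 on the opposite strand. The annotated starts are 65 bases apart. Plgrkt was at 16.5 ± 0.67 CPM in vector, 18.8 ± 1.95 in WT and 16.9 ± 1.37 in PD, neither called against vector (adjusted p = 0.064 and 0.75). It was at 21.4 ± 1.08 in V87R (1.30-fold, adjusted p = 0.0017) and 21.2 ± 1.10 in L88D (1.29-fold, adjusted p = 0.0026). The stretch between both starts is printed because genes on its 2 sides differed so much in their rise: 32.3-fold for Cd274 against 1.14-fold for Plgrkt in WT. It covers chr19:29367391-29367437 of GRCm38.p6, on the plus strand, and ends at the base before the RefSeq start of Cd274, from RefSeq's promoter table. No letters are in capitals because no motif searched was found there.
Cd274: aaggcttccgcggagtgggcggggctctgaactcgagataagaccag

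**Figure D2:**
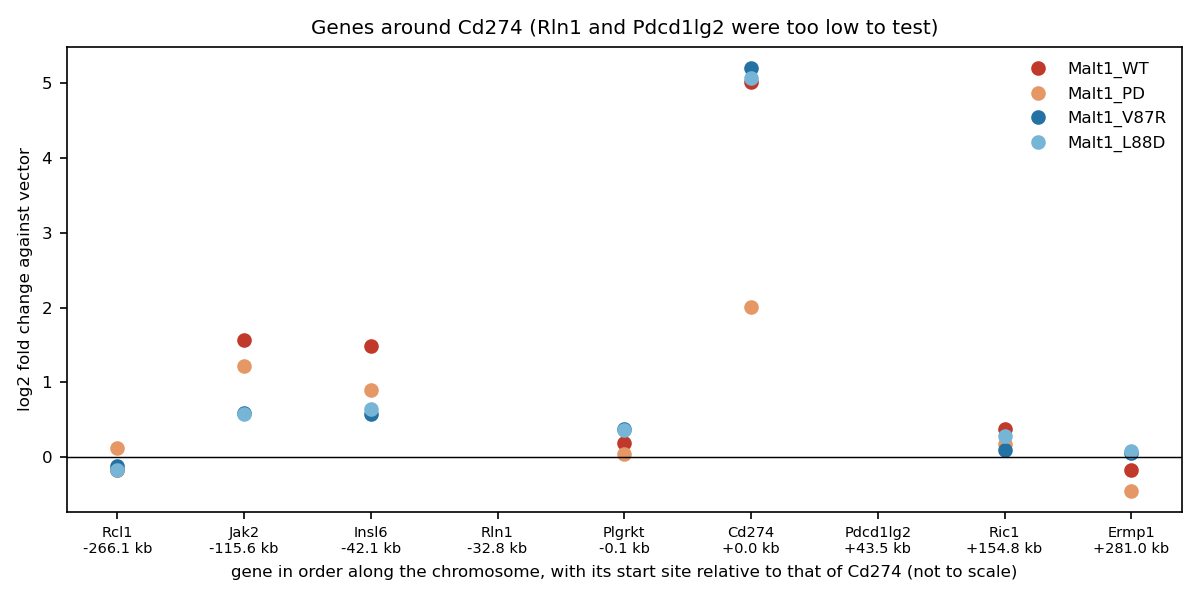
Log2 fold change against vector (vertical axis) of Cd274 and the tested protein-coding genes beside it, ordered by the distance of their start from that of Cd274 in kb. Points are constructs. Cd274 stood above its neighbours in all 4 lines, and Plgrkt, 65 bases away, stayed between 0.04 and 0.38.

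A gene annotated on the opposite strand, AC119228.1, shares exon bases with Cd274. It was counted 20 times over the vector libraries, 229 times in WT, 46 in PD, 144 in V87R and 117 in L88D, against 315, 8448, 1191, 12197 and 9806 counts of Cd274. Without the strand setting of the counting, reads of the pair cannot be told apart.

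Pvr followed another order, with WT and PD high and both death domain substitutions near the vector. It lies on chromosome 7 at 19903578 to 19921160, minus strand (ENSMUSG00000040511.14). The vector libraries held 131.7, 153.7 and 150.6 CPM. The WT libraries held 557.4, 579.5 and 574.1 CPM and the PD libraries 462, 471.3 and 452.2 CPM. All 6 stood above the vector range by more than its width, and WT lay above PD. The V87R libraries held 159.8, 166.9 and 163 CPM, and the L88D libraries 163.9, 177.5 and 168.3 CPM, just above the highest vector library.

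Against vector, Pvr rose by 1.97 ± 0.05 in WT (3.93-fold, adjusted p = 6.5e-24) and by 1.67 ± 0.05 in PD (3.18-fold, adjusted p = 5.2e-22). The PD line held 81% of the WT level (adjusted p = 5.5e-06), whereas for Cd274 it held 12.5%. In L88D the change was 0.23 ± 0.05 (adjusted p = 0.00071) and in V87R 0.17 ± 0.05 (adjusted p = 0.014). The V87R call ended without vector replicate 1 (adjusted p = 0.17) or V87R replicate 2 (adjusted p = 0.073). Relative to WT, V87R held 28.6% (adjusted p = 9.3e-23) and L88D 29.8% (adjusted p = 2.6e-22). V87R and L88D were not called different (-0.06, 95% interval -0.15 to 0.04, adjusted p = 0.89). Both fell below PD, to 35.3% (adjusted p = 7.7e-21) and 36.8% (adjusted p = 2.1e-20).

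Nectin2, the gene of the other TIGIT ligand, also lies on chromosome 7, at 19716644 to 19750483, minus strand (ENSMUSG00000062300.14). The 2 genes are 153.1 kb apart. Its 15 libraries ran from 63 to 81 CPM. In WT it rose from 68.2 ± 4.51 to 79.1 ± 1.12 CPM (1.16-fold, adjusted p = 0.002). In L88D it was at 78 ± 2.67 CPM (1.14-fold, adjusted p = 0.017), in PD at 75.6 ± 4.02 (1.11-fold, adjusted p = 0.032) and in V87R at 73.6 ± 4.51 (1.08-fold, adjusted p = 0.25). The PD libraries overlapped the vector libraries. The PD call ended without vector replicate 2 (adjusted p = 0.18), PD replicate 1 (0.099) or PD replicate 3 (0.092), and the L88D call without vector replicate 2 (0.087) or L88D replicate 3 (0.095). Pvr and Nectin2, ligands of the same receptors, thus moved by unequal amounts in WT and PD.

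Cd47 rose in all 4 lines, with the same split of lines as Pvr but over a narrower range. It lies on chromosome 16 at 49800533 to 49915010, plus strand (ENSMUSG00000055447.19). The vector libraries held 224.7, 227.8 and 223.6 CPM, the WT libraries 331.9, 347.9 and 343.5, and the PD libraries 360.1, 339.9 and 350.7. The V87R libraries held 272.3, 272.6 and 261.4 CPM and the L88D libraries 270.9, 262.1 and 270.9. The 5 groups fell into 3 ranges without overlap: vector, both death domain substitutions, and WT with PD. The rise was 0.60 ± 0.04 in WT (1.51-fold, adjusted p = 2.6e-14) and 0.64 ± 0.04 in PD (1.55-fold, adjusted p = 8.3e-15). It was 0.25 ± 0.04 in V87R (1.19-fold, adjusted p = 7.3e-06) and in L88D (1.19-fold, adjusted p = 8.6e-06). WT and PD were not called different (0.04, 95% interval -0.03 to 0.11, adjusted p = 0.49), and neither were V87R and L88D (0.01, interval -0.07 to 0.08, adjusted p = 0.99). V87R was below WT (-0.34 ± 0.04, adjusted p = 3.8e-09), as was L88D (-0.35 ± 0.04, adjusted p = 3.4e-09).

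Lgals9, whose product is a secreted galectin, was the 1 tested ligand gene that fell in WT. It lies on chromosome 11 at 78962974 to 78984946, minus strand (ENSMUSG00000001123.15). The vector libraries held 148.6, 136.5 and 129.6 CPM, and the WT libraries 101.8, 100.9 and 101.2 CPM. The PD libraries held 136.9, 120.2 and 133.9 CPM, the V87R libraries 140.5, 137.3 and 136.3, and the L88D libraries 132.2, 138.8 and 135.8. Only the WT libraries lay apart from the rest. WT held 73.3% of the vector level (-0.45 ± 0.05, adjusted p = 1e-08). No other line was called against vector, with -0.08 in PD (95% interval -0.19 to 0.02, adjusted p = 0.17), -0.00 in V87R (-0.10 to 0.10, adjusted p = 0.99) and -0.03 in L88D (-0.13 to 0.07, adjusted p = 0.76). All 3 mutants exceeded WT, by 1.29-fold in PD (adjusted p = 3e-06), 1.36-fold in V87R (adjusted p = 1.4e-08) and 1.34-fold in L88D (adjusted p = 5e-08).

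Among the B7 family genes, Icosl was highest in WT and PD, as were Pvr and Cd47. It lies on chromosome 10 at 78069302 to 78083913, plus strand (ENSMUSG00000000732.9). Vector held 24.6, 26.5 and 25.4 CPM, WT 39.5, 33.3 and 37.1, and PD 33.8, 31 and 33.7. V87R held 29.4, 26.8 and 24.5 CPM and L88D 26.1, 26.3 and 27.6. WT and PD lay above the other 9 libraries and overlapped each other. The rise was 0.52 ± 0.07 in WT (1.44-fold, adjusted p = 5.4e-07) and 0.37 ± 0.07 in PD (1.29-fold, adjusted p = 0.00012). Neither V87R (0.08, 95% interval -0.07 to 0.23, adjusted p = 0.56) nor L88D (0.07, interval -0.09 to 0.22, adjusted p = 0.59) was called. PD was not called against WT (-0.16 ± 0.07, adjusted p = 0.12), but it was without WT replicate 2, the lowest WT library (-0.23, adjusted p = 0.036).

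Cd276 (chromosome 9, 58524298 to 58555437, minus strand, ENSMUSG00000035914.11) stayed within 32.6 and 41.1 CPM over all libraries. Against vector it was called in PD alone, at 38.8 ± 2.86 CPM against 34.6 ± 1.67 in vector (1.12-fold, adjusted p = 0.036). The libraries overlapped, and the call ended without vector replicate 2 (adjusted p = 0.11), vector replicate 3 (0.071), PD replicate 1 (0.075) or PD replicate 3 (0.16). PD also exceeded WT, at 33.5 ± 0.93 CPM (1.16-fold, adjusted p = 0.016), a call that ended without PD replicate 1 (0.067), PD replicate 3 (0.13) or WT replicate 2 (0.085). Against PD, V87R was not called (-0.10, adjusted p = 0.22), except without PD replicate 2 (-0.16, adjusted p = 0.042).

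The 3 B7 genes typical of antigen-presenting cells were near the detection limit. Cd80 (chromosome 16, 38455561 to 38496335, plus strand, ENSMUSG00000075122.5) had 5 to 18 counts per library. Its group means were 0.785 CPM in vector, 0.843 in WT, 0.620 in PD, 0.616 in V87R and 0.694 in L88D, and no comparison called it. The depth leaves wide limits, such as 0.13 in WT with a 95% interval of -0.71 to 0.96. Cd86 (chromosome 16, 36603869 to 36666081, minus strand, ENSMUSG00000022901.13) had 0 counts in each vector library, which allows up to 0.0515 CPM over the group. It had 1, 12 and 5 counts in WT, 3, 2 and 6 in PD, 2, 4 and 3 in V87R and 1, 0 and 0 in L88D. Pdcd1lg2 (chromosome 19, 29410919 to 29471161, plus strand, ENSMUSG00000016498.10) is given above. The filter left both untested. A fit of every gene with any count called Cd86 higher than vector in WT (adjusted p = 0.00023) and PD (adjusted p = 0.0067), not in V87R (0.066) or L88D (0.71), and called Pdcd1lg2 nowhere. The macrophage and dendritic cell list was also lowest in vector, and its part in the Cd86 counts was not tested.

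The promoter windows of RefSeq, 250 bases before to 50 after each start, were searched on both strands for 4 motifs. These were the NF-kB motif, the interferon regulatory factor (IRF) element (GAAA, 2 bases of any kind, GAAA), the STAT element TTCNNNGAA and the AP-1 motif TGANTCA. Of the 10 ligand genes 8 had a window, and Pvr and Cd86 had none in the table. Matches were found in 4 windows: NF-kB in Pdcd1lg2 and Icosl, IRF in Lgals9, at 2 places, and AP-1 in Cd80. The Cd274, Nectin2, Cd47 and Cd276 windows held none, which says only that these letters are not there. Of all 32851 windows, 8.46% held the NF-kB motif, 3.44% the IRF element, 8.3% the STAT element and 7.81% the AP-1 motif. The pair with an NF-kB match is printed because its members differed in level, Icosl being called in WT and PD and Pdcd1lg2 being near 0. Lgals9 is printed because it fell in WT and holds an IRF match. Letters are those of the strand of the gene, 5′ to 3′, in GRCm38.p6, and capitals mark the match. The Pdcd1lg2 match is on both strands. The Icosl and Lgals9 matches are on the opposite strand, so their capitals show the reverse complement of the motif. The stretches are chr19:29410669-29410788 (plus), chr10:78069182-78069301 (plus) and chr11:78984947-78985066 (minus).
Pdcd1lg2: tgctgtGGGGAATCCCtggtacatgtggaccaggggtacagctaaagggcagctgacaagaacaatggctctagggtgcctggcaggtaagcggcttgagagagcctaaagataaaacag
Icosl: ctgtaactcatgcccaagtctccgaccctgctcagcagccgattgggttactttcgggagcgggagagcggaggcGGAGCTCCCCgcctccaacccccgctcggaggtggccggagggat
Lgals9: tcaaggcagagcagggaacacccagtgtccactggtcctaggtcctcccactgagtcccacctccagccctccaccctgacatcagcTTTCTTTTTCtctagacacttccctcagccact

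Read by line, 5 of the 8 tested ligand genes (Cd274, Pvr, Cd47, Icosl and Nectin2) were higher in WT than in vector, and Lgals9 was lower. Of all genes tested, 27.2% rose and 27.7% fell in that comparison. In PD 6 were higher and 0 lower, where 22.8% of all genes rose and 22% fell. In V87R 3 were higher (Cd274, Pvr and Cd47) and 0 lower, where 7.01% rose and 4.7% fell. In L88D 4 were higher (those and Nectin2) and 0 lower, where 8.96% rose and 8.43% fell. For V87R, leaving out V87R replicate 2 moved the calls over all genes from 1706 to 1130. For L88D, leaving out vector replicate 1 moved them from 2534 to 1545. The median change of the 8 genes was 0.37 in WT, 0.27 in PD, 0.09 in V87R and 0.14 in L88D, beside medians over all genes of -0.01, 0.00, 0.00 and -0.01. Rises of at least 2-fold were limited to Cd274 in all 4 lines and Pvr in WT and PD, and 7.85%, 5.32%, 1.26% and 1.6% of all genes rose that far in WT, PD, V87R and L88D. These 4 comparisons share the vector libraries.

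Against WT, PD was lower for Cd274 and Pvr and higher for Lgals9 and Cd276, where 10.7% of all genes were lower and 12.6% higher. V87R was lower for Pvr, Cd47 and Icosl and higher for Cd274 and Lgals9, where 23.4% were lower and 24.9% higher. L88D was lower for Pvr, Cd47 and Icosl and higher for Lgals9, where 22.3% were lower and 22.8% higher. Against PD, V87R and L88D were each higher for Cd274 and lower for Pvr, Cd47 and Icosl. Of all genes, 20.4% were higher and 21.1% lower in V87R than in PD, and 20% and 21.4% in L88D. Between V87R and L88D, edgeR called 0 of the 8 ligand genes and 0 of 14571 genes (0%), with 852 at an unadjusted p under 0.05. DESeq2 and limma-voom also called 0, with 591 and 893 at that level.

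**Figure D3:**
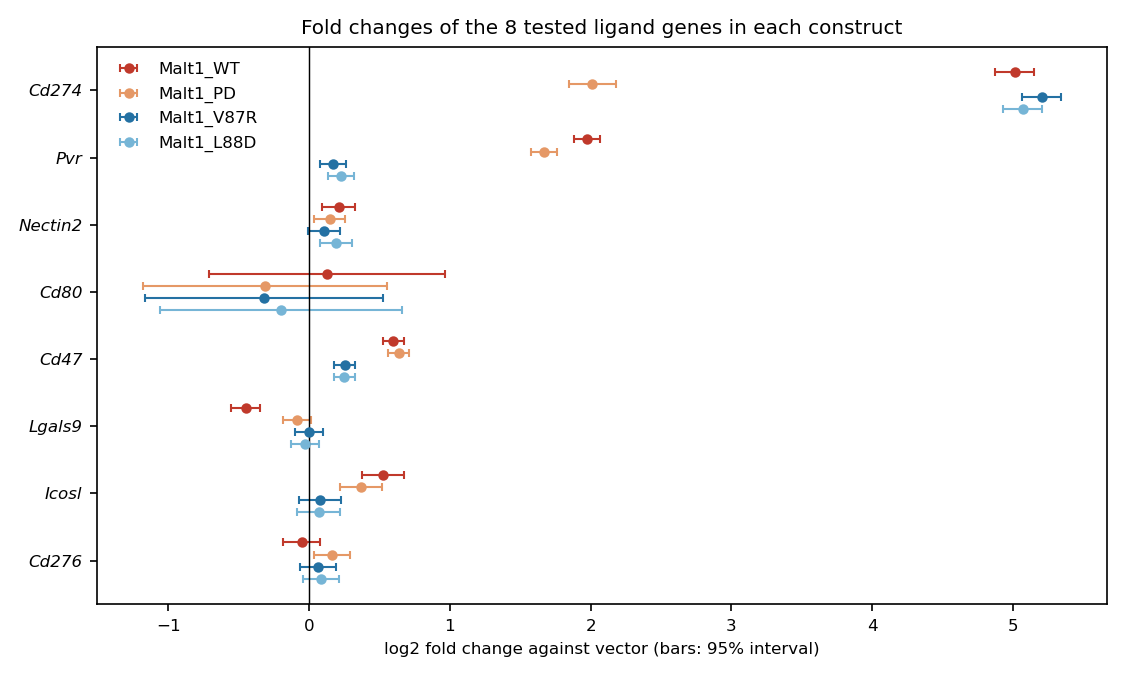
Log2 fold change against vector of the 8 tested ligand genes in each Malt1 line, with 95% intervals. Cd274 was high in WT, V87R and L88D and lower in PD, whereas Pvr, Cd47 and Icosl were higher in WT and PD than in V87R and L88D.

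Levels of different genes were set side by side only per length, as TPM (transcripts per 1e6 transcripts). The length was all exon bases of a gene over its transcripts in GENCODE M21. That was 3622 bases from 1 transcript for Cd274 and 6122 bases from 5 transcripts for Pvr. A gene whose used transcripts are shorter is understated, so shares and ratios between genes are approximate. The 10 ligand genes summed to 476.3 ± 12.6 TPM in vector, 852 ± 10.8 in WT, 694.8 ± 4.02 in PD, 686.3 ± 18.5 in V87R and 665.9 ± 25.4 in L88D. Sums in PD, V87R and L88D were alike in size but made up of different genes. In PD, Pvr gave 31.7% and Cd274 2.54% of the sum. In V87R, Pvr gave 11.8% and Cd274 24.4%, and in L88D 12.5% and 22.6%. WT held both, with 32.9% from Pvr and 17% from Cd274. In vector Lgals9 led with 40.3%, followed by Cd47 with 22.4%, and Cd274 gave 0.938%. The ratio of Pvr to Cd274 in TPM was 15.4 to 16.1 in the vector libraries, 11.6 to 13.1 in PD and 1.89 to 1.97 in WT. It was 0.544 to 0.568 in L88D and 0.457 to 0.507 in V87R. No library of one line fell in the range of another.

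**Figure D4:**
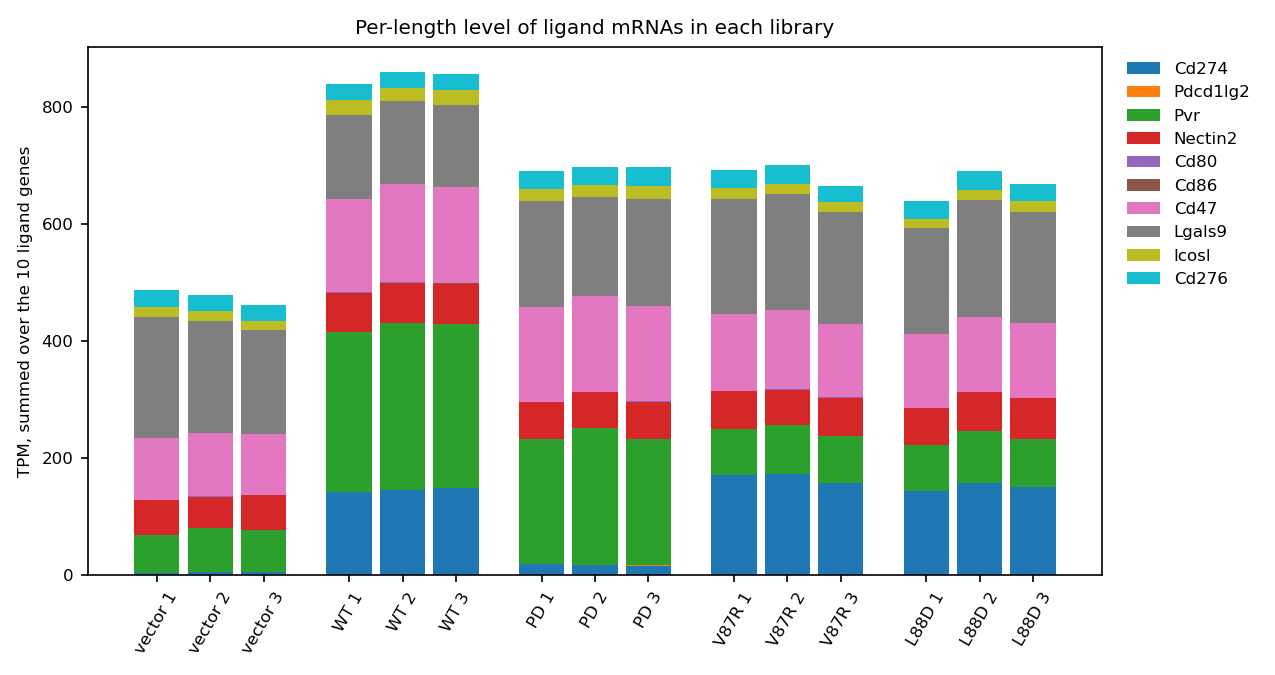
TPM of the 10 ligand genes stacked for each of the 15 libraries. WT held the tallest bars, and PD, V87R and L88D reached similar heights, with Pvr the largest part in PD and Cd274 and Lgals9 the largest parts in V87R and L88D.

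Of 36 other listed ligands of T and NK cells, 32 were in the table and 17 were tested. In WT 9 rose and 7 fell (median 0.32), in PD 8 and 4 (0.21), in V87R 6 and 1 (-0.07) and in L88D 6 and 5 (-0.01). Over all tested genes, 27.2% rose and 27.7% fell in WT, 22.8% and 22% in PD, 7.01% and 4.7% in V87R, and 8.96% and 8.43% in L88D, with medians of -0.01, 0.00, 0.00 and -0.01. Cd40, a costimulatory receptor of antigen-presenting cells, rose from 9.15 ± 0.59 to 53.5 ± 4.94 CPM in WT (5.85-fold, adjusted p = 1e-20). It reached 37.1 ± 2.41 CPM in PD, 17.8 ± 0.91 in V87R and 17 ± 0.55 in L88D, an order like that of Pvr. Icam1, the adhesion ligand of the integrin LFA-1, went from 15.1 ± 0.40 to 81.4 ± 4.84 CPM in WT (5.38-fold, adjusted p = 2.9e-22), and to 49.3, 27.6 and 26.7 CPM in PD, V87R and L88D. Tnfrsf14, a ligand of the inhibitory receptor BTLA, was higher in V87R and L88D than in PD. It was at 1.30 CPM in vector, 5.02 in WT (3.84-fold, adjusted p = 4.5e-09), 2.04 in PD, 3.63 in V87R and 4.07 in L88D. H2-T23, which encodes the nonclassical class I molecule Qa-1, a ligand of NKG2A, was at 22.5 ± 2.18 CPM in vector and 46.7 ± 1.06 in WT (2.07-fold, adjusted p = 1.3e-13). In PD it reached 34.5 CPM, and in V87R and L88D 46.1 and 47.7 CPM.

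Among genes of that list with at least 5 CPM in the higher group, the largest falls in WT were in Vsir, which encodes the checkpoint protein VISTA, and Nectin3. Below that level Vtcn1, a B7 family gene named after its values were seen, fell from 1.62 to 0.820 CPM (0.51-fold, adjusted p = 0.0068). Vsir went from 52.9 ± 5.16 to 31.8 ± 0.56 CPM (0.60-fold, adjusted p = 4.9e-11), and stood at 36.4 in PD, 50 in V87R and 49.3 in L88D. Nectin3 was at 33.6 ± 0.56 CPM in vector and 24 ± 1.04 in WT (0.71-fold, adjusted p = 3.8e-07). Lgals3, a second galectin gene, fell from 744.1 ± 44.3 to 617.2 ± 7.60 CPM (adjusted p = 4.6e-06). Raet1d, of the NKG2D ligand family with near-identical copies that may share reads, was at 32.7 ± 4.52 CPM in vector and 28.1 ± 1.17 in WT (adjusted p = 0.021). Fgl1, the 1 tested gene of the list not called in WT, was at 1.44 and 1.81 CPM.

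Of 26 listed regulators of Cd274, 24 were tested. In WT 19 rose and 1 fell (median 0.45), in PD 17 and 1 (0.29), in V87R 9 and 1 (0.08) and in L88D 10 and 3 (0.10). Beside these stand 27.2% of all tested genes rising and 27.7% falling in WT, 22.8% and 22% in PD, 7.01% and 4.7% in V87R, and 8.96% and 8.43% in L88D. The list was put together from general knowledge of PD-L1 control with results of these data known, so its direction is no independent evidence. It holds inhibitors such as Socs1 beside activators, so a rise of its members is not a rise of activators alone. Irf1, the interferon-induced transcription factor, had a mean of 56.8 CPM in vector, 422 in WT (7.43-fold, adjusted p = 6e-28), 102 in PD (1.79-fold, adjusted p = 3.5e-15), 360 in V87R (6.35-fold, adjusted p = 8.4e-27) and 348 in L88D (6.13-fold, adjusted p = 1.4e-26). Nfkb2, which encodes an NF-kB subunit, had a mean of 89.7 CPM in vector, 221.8 in WT (2.47-fold, adjusted p = 4.4e-20) and 235.7 in PD (2.63-fold, adjusted p = 1.9e-20). It was not called in V87R (0.02, 95% interval -0.07 to 0.11, adjusted p = 0.84) or L88D (0.03, interval -0.07 to 0.12, adjusted p = 0.76). Irf1, like Cd274, was low in vector and PD and high in the other 3 lines. At the top its order was turned, since V87R held 85.4% (adjusted p = 2.5e-05) and L88D 82.5% (adjusted p = 1.5e-06) of the WT level of Irf1. Nfkb2 was high where Pvr was, in WT and PD.

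Socs1, a feedback inhibitor of cytokine signalling, was at 10.4 ± 1.80 CPM in vector, 55.2 ± 5.27 in WT (5.30-fold, adjusted p = 1e-13), 20 ± 3.28 in PD, 30.1 ± 1.66 in V87R and 32.1 ± 0.82 in L88D. Jak2 is given above. Cmtm4, whose product stabilises the CD274 protein, was the 1 regulator that fell in WT, from 128.9 ± 9.21 to 115.5 ± 1.35 CPM (adjusted p = 0.007). The most abundant regulators not called in WT were Myc, at 662.6 ± 14.6 and 687.7 ± 17.9 CPM, and Jak1, at 329.1 ± 17.3 and 322.4 ± 9.95 CPM. The interferon genes Ifnb1 and Ifng were too low to test, with at most 14 and 3 counts summed over a group.

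**Figure D5:**
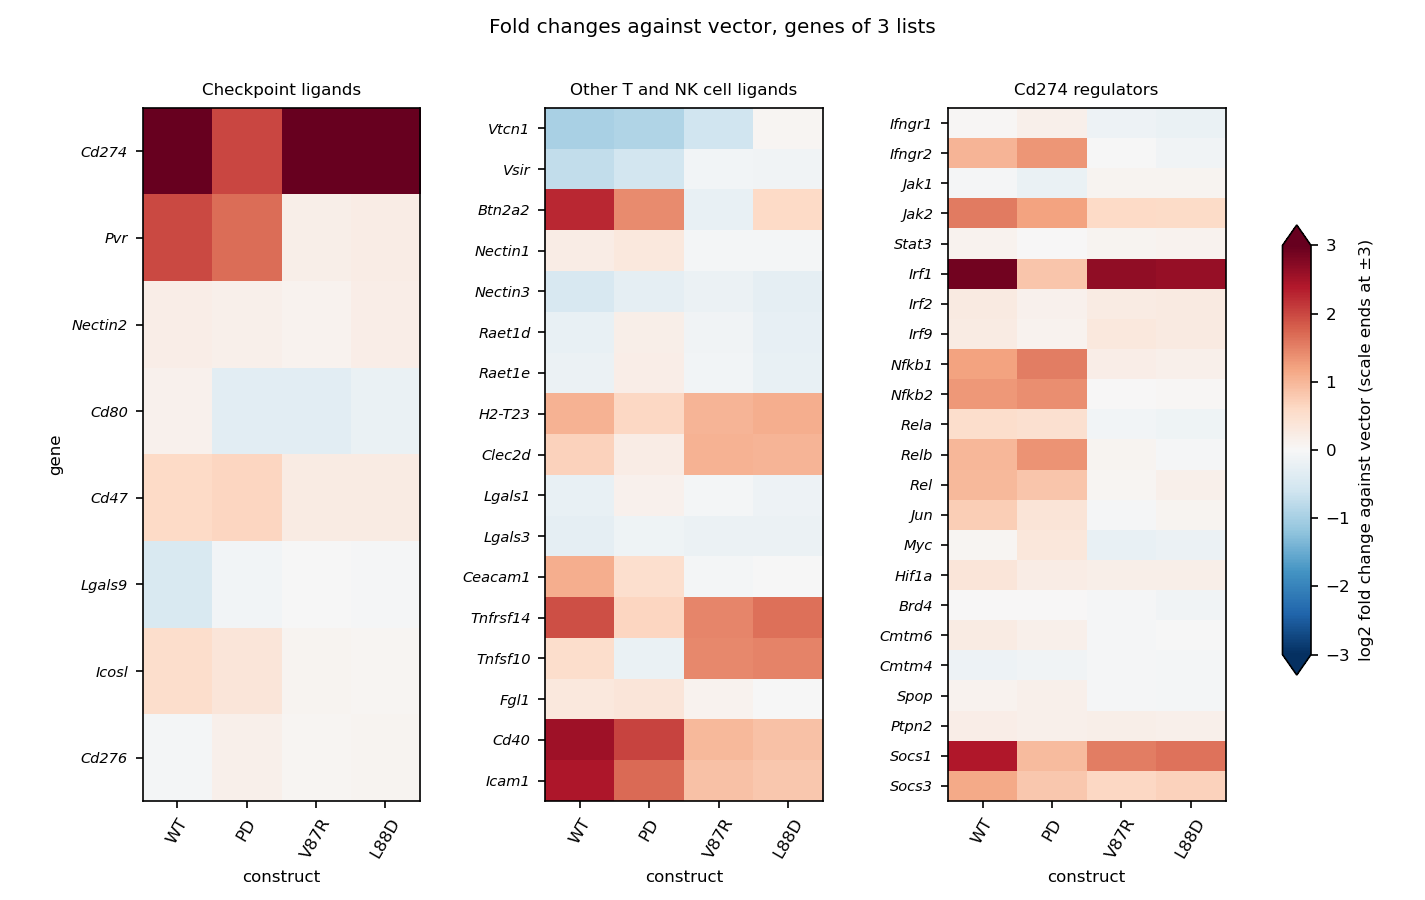
Log2 fold change against vector, as colour, of tested genes of 3 lists: the ligand genes, other ligands of T and NK cells, and regulators of Cd274. Columns are the Malt1 lines. Irf1 was strong in WT, V87R and L88D and weaker in PD, as was Cd274, while Nfkb2 was called in WT and PD only, the lines in which Pvr and, on a smaller scale, Icosl rose most.

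The genes most like each ligand were taken by Pearson's r of log2 CPM over the 15 libraries, which mostly follows the 5 group means and carries no p-value. The 6 closest to Cd274 were Ifi47 (r = 0.995), Dtx3l (0.991), Irf1 (0.991), Gbp3 (0.99), Gbp2 (0.989) and Gbp6 (0.989). Ifi47 and the Gbp genes encode interferon-inducible GTPases. Gbp2, for example, had means of 49.4 CPM in vector, 472 in WT, 97.9 in PD, 385 in V87R and 369 in L88D. The closest to Pvr were Chst11 (r = 0.997), which encodes a chondroitin sulfotransferase, and Procr (0.997), which encodes the protein C receptor. Procr had means of 20.5 CPM in vector, 237 in WT, 151 in PD, 23.8 in V87R and 25.9 in L88D.

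Cd47 was closest to Srpr (r = 0.991), a subunit of the signal recognition particle receptor, and Ch25h (0.986), which encodes cholesterol 25-hydroxylase. Ch25h had means of 0.563 CPM in vector, 11 in WT, 14.7 in PD, 2.4 in V87R and 2.29 in L88D. Icosl was closest to Mpp2 (0.961) and Mroh1 (0.957), and Lgals9 to Tomm22 (0.967), of the mitochondrial import machinery, and Sod3 (0.959), an extracellular superoxide dismutase. Sod3 had means of 73.9 CPM in vector and 40 in WT, with 64.8, 71 and 72.3 in PD, V87R and L88D. Nectin2 (Htatip2, r = 0.878, and B3gnt3, 0.861), Cd276 (Usp18, 0.883, and Msmo1, 0.83) and Cd80 (Gtpbp6, 0.711, and Rab11fip3, 0.688) had less close partners. Among the ligand genes themselves, r was 0.93 for Pvr and Cd47, 0.92 for Pvr and Icosl, and -0.78 for Pvr and Lgals9. For Cd274 and Pvr it was 0.15.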

How the data were processed

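The authors deposited a table of unnormalised counts per gene symbol. Per the submitters' processing notes, reads were handled with featureCounts 1.6.3, STAR 2.7.3a and Trim Galore 0.6.0, and GRCm38.p6 was the build. Per the labels, the kit keeps strand. Annotation release, strand setting and multi-mapping rule were not given in the sources used here.

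Groups came from column names. The C461A columns were assigned to Malt1_PD, the only construct without columns of its own name. Positions and lengths came from GENCODE M21 (55418 symbols matched, 153 not).

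Tests on these counts used edgeR 4.0.16 (R 4.3.3), with filterByExpr by group, TMM factors (0.9732 to 1.0153) and the robust quasi-likelihood method on the 15 libraries together. The 10 comparisons were two-sided. Benjamini-Hochberg adjustment ran over 14571 genes, and an adjusted p under 0.05 was called. Variation between libraries of a group beyond counting noise (edgeR's common coefficient) was estimated at 4.61%, and may be technical. Intervals have a level of 95%. A count of 0 allows up to 3 counts, for counting error only. The test was tried on simulated data. No replicate pair matched within sampling noise (chi-square per gene at least 1.94).

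Members, lists and rules were chosen with earlier results of these data known. Named genes were all ligand genes, the neighbours of Cd274 and, from both other lists, up to 4 rises and 4 falls of largest fold called in Malt1_WT against vector with at least 5 CPM in the higher group, plus up to 2 of highest CPM not called. The closest genes by correlation (prior count 2) needed at least 5 CPM in a group. The marker lists covered B cells, T or NK cells, dendritic cells with macrophages, epithelium, endothelium and fibroblasts. 1 regulator is in the counts but not reported here. Summed B cell markers were at 25 to 43.3 CPM per library and endothelial markers at 14.9 to 24.2 CPM.

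Alternatives were RLE and upper-quartile factors, DESeq2 1.42.0, limma-voom (limma 3.58.1), no filter, a replicate block, only the 6 libraries compared, a prior count of 0.5 and leaving out each library.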

Additional observations from a re-analysis of the deposited data

How the results depend on the processing

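No alternative reversed a ligand gene that was called. The number of ligand genes called higher in PD than in WT moved from 2 to 1 with only the 6 libraries compared. It ran from 1 to 2 when libraries were left out in turn, Cd276 being the gene that lost its call. Against vector, the number higher then ran from 4 to 6 in PD, 2 to 3 in V87R and 3 to 4 in L88D. In WT that number stayed at 5. The number lower ran from 2 to 3 in PD against WT and from 3 to 4 in V87R against PD. Over all pairs of a ligand gene result and a setting, a call was lost in 20 and gained in 3. Beside those named in the report, Nectin2 and Cd276 in PD lost theirs under upper-quartile factors (adjusted p = 0.079 and 0.076) and with only the 6 libraries compared (0.078 and 0.084), Cd276 in PD under DESeq2 (0.051), Cd276 in PD against WT with only those libraries (0.053), and Nectin2 in V87R against WT gained one there (0.047). The cause was not tested.

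Calls over all genes between V87R and L88D numbered 0, but 5 without the filter, 25 with only those 6 libraries and 2 without L88D replicate 1. In PD against WT, 54% of called genes were higher, and 43.6% under upper-quartile factors (1834 higher and 1565 lower, against 1365 and 1766).

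With a replicate block, Cd274 in WT changed by 5.01 and each count of called ligand genes was as without it, for example 5 higher and 1 lower in WT. Deviations of libraries with the same number correlated between -0.05 and 0.15. In PD against vector 2 of 3 pairs passed 0.1, and in no comparison did every pair. The labels do not say what the numbers stand for, and weak correlations cannot exclude a shared preparation. The main fit treated the libraries as unpaired. With a prior count of 0.5 the 6 genes closest to Cd274 were the same 6. Counts of a few reads limit Cd80, Cd86 and Pdcd1lg2.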

Other observations

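Receptors of these ligands were sparse. Of 9 listed, Tigit, Havcr2 and Sirpa were tested. Tigit, a receptor for PVR and NECTIN2 known from T and NK cells, was at 6.09 ± 0.72 CPM (SD, n = 3) in vector, 3.97 ± 0.18 in WT (0.65-fold, adjusted p = 0.0012, edgeR quasi-likelihood test) and 6.65 ± 0.66 in PD (adjusted p = 0.52). It was lower than vector in L88D as well, at 4.03 ± 0.65 CPM (0.65-fold, adjusted p = 0.0049), and at 4.56 ± 0.77 CPM in V87R it was not called (0.75-fold, adjusted p = 0.06). Havcr2, which encodes TIM-3, rose from 1.82 ± 0.13 CPM in vector to 7.92 ± 0.84 in WT (4.33-fold, adjusted p = 2.5e-12) and was at 6 ± 0.35 in PD, 3.23 ± 0.41 in V87R and 2.96 ± 0.27 in L88D. Pdcd1 had 1 count in all 15 libraries, in PD. The summed T and NK cell markers beside these values were given with the marker lists.

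Tnfsf10 and Clec2d, chosen after their values were seen, were higher in both death domain substitutions than in WT. Tnfsf10, the gene of the death ligand TRAIL, was at 3.91 CPM in vector, 5.66 in WT, 3.40 in PD, 10.7 in V87R and 11 in L88D. V87R exceeded WT 1.89-fold (adjusted p = 1.1e-06, edgeR) and L88D 1.93-fold (adjusted p = 9.4e-07). Clec2d, an NK cell receptor ligand gene, was at 22.1, 35.7, 25.6, 45.8 and 45.2 CPM in the same order of lines, 1.28-fold (adjusted p = 3.3e-05) and 1.27-fold (adjusted p = 8.3e-05) above WT.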
